A study of Homo sapiens with 6 samples.

Results

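The regions described here are the open chromatin sites around 7 Notch pathway genes in the lung carcinoma line H1155, of human origin: the ligands DLL3, DLL1 and JAG1, the receptors NOTCH1 and NOTCH2, and the transcriptional repressors HES1 and HES6. A region was counted if it overlapped a window of the gene span with 50 kb on each side, which gave 124 of the 149765 regions formed by merging the peaks of all libraries. Open chromatin was measured by ATAC-seq with the Omni-ATAC preparation, in which a transposase cuts and tags accessible DNA, in 3 libraries of cells with the genotype chimera and 3 libraries of cells with the genotype control. Per the labels the libraries of each group are biological triplicates. The titles call the chimera libraries TA. The labels give neither the parts of the chimera nor what the control cells carry, nor whether a group is 1 clone. No age, dose or time is given, and both groups share the cell line. The peak lists held no gene names, so the cell line was not checked against marker genes.

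Notch signalling passes between touching cells. A ligand on one cell binds a receptor on its neighbour, the receptor is cut, and its intracellular part enters the nucleus and joins RBPJ, a DNA-binding protein, to switch on targets such as HES1. HES1 is a transcriptional repressor, and in lung tumours with neuroendocrine features Notch activity is known for restraining that programme. DLL3 differs from the other ligands in that it is held largely inside the cell and dampens the pathway, and it is a known surface target in neuroendocrine lung cancer. HES6 is a HES relative that counteracts HES1 and is found in neuronal and neuroendocrine cells.

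The promoters of HES1, HES6 and NOTCH1 show how different the DNA at the starts of these genes is. Each line gives the 250 bases before the RefSeq start (GRCh38.p14 table), read 5′ to 3′ on the gene's own strand, with matches to the searched motifs in capitals. The promoter table used here matched 5 of the 7 genes, JAG1, NOTCH1, NOTCH2, HES1 and HES6.
HES1: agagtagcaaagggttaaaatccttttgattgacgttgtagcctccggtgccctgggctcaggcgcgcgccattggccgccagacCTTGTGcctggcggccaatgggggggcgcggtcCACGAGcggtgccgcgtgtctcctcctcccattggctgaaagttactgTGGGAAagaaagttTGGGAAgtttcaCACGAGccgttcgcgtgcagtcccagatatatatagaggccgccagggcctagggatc
HES6: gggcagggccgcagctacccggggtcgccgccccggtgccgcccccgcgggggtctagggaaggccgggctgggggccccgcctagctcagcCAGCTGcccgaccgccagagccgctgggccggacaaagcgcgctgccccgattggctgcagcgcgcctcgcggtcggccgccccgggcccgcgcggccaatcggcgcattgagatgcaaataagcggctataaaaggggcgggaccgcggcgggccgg
NOTCH1: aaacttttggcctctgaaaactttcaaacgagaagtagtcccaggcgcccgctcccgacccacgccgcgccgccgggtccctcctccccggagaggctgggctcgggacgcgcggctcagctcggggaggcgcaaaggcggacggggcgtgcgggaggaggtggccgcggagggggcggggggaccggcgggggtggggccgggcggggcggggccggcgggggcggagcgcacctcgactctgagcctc
The motifs searched on both strands were TGGGAA (the RBPJ core), CACNAG (the N-box, a site for HES proteins), CANNTG (the E-box), TGANTCA (AP-1) and GGAATG (the TEAD core). HES1 held 2 copies of TGGGAA, starting 84 and 70 bases before the gene start, and was the only one of the 5 promoters with that motif, which 21.1% of 27305 promoters held. It also held 3 matches to CACNAG, a motif found in 32.0% of promoters. HES6 held 1 palindromic CANNTG site, CAGCTG, a motif found in 62.2% of promoters. None of the 5 promoters held TGANTCA (6.60% of promoters) or GGAATG (11.9%). The HES1 promoter had 18 CpG pairs, whereas HES6 had 35 and NOTCH1 had 33, against a median of 11 over all promoters. A match describes letters in this window and not a bound site.

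The values below come from 1 peak list per library, called by the authors. The deposited fold divides the fragment pileup at a summit by the local background of the same library. The chimera libraries had 94484, 98984 and 99654 peaks on chromosomes 1 to 22 and X, against 101267, 85730 and 109321 in the control libraries. The 7 windows held 86, 85 and 89 of these peaks in the chimera libraries and 98, 81 and 106 in the control libraries. Control 2 thus had the fewest peaks and control 3 the most, in the windows as in the whole lists. Over the 56679 regions called in all 6 libraries, the median fold was 6.65, 7.24 and 6.71 in the chimera libraries and 7.80, 6.31 and 8.22 in the control libraries, so a fold is comparable between libraries only after centring.

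The submitters' processing notes name GRCh38, but the deposited coordinates did not match that build. Peaks ran past the last gene of the RefSeq gene table for GRCh38.p14 on 15 of 23 chromosomes, and none of the 7 gene starts listed there lay within 2 kb of a region called in all 6 libraries. With the windows read as hg19, 5 of the 7 gene starts did, and NOTCH1 and DLL1 did not. Positions are therefore given as hg19. The windows are rounded to 1 kb, which limits every distance from a gene start, and no exon or intron is assigned. The windows also hold neighbouring genes in the RefSeq table, 5 around DLL3 (SUPT5H, TIMM50, SELENOV, EID2B and EID2), 2 around HES6 (ILKAP and PER2) and 1 around each of the others (FAM120B at DLL1, SLX4IP at JAG1, SEC16A at NOTCH1, ADAM30 at NOTCH2 and LOC102724877 at HES1), so a region in a flank need not belong to the named gene.

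No site of these 7 genes was called in every library of one group and in none of the other. Of the 124 regions, 0 had a peak in all 3 chimera and no control library, where 0.621% of all merged regions did, and 0 had a peak in all 3 control and no chimera library, where 0.799% of all did. No single region was tested for presence, since 3 libraries against 3 cannot give an exact p below 0.1. All 6 libraries shared 54 of the 124 regions (43.5%, against 37.8% of all regions), and 33 (26.6%, against 29.7% of all) belonged to a single library. Presence in at least 2 more chimera than control libraries was seen in 1 region (0.806%, against 4.24% of all regions). Presence in at least 2 more control than chimera libraries was seen in 6 regions (4.84%, against 5.56% of all regions). The share with more chimera calls was below that of all regions, and the share with more control calls was close to it. More chimera than control libraries had a peak in 25 regions (20.2%, against 26.2% of all), and fewer in 36 (29.0%, against 27.2% of all).

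**Figure D1:**
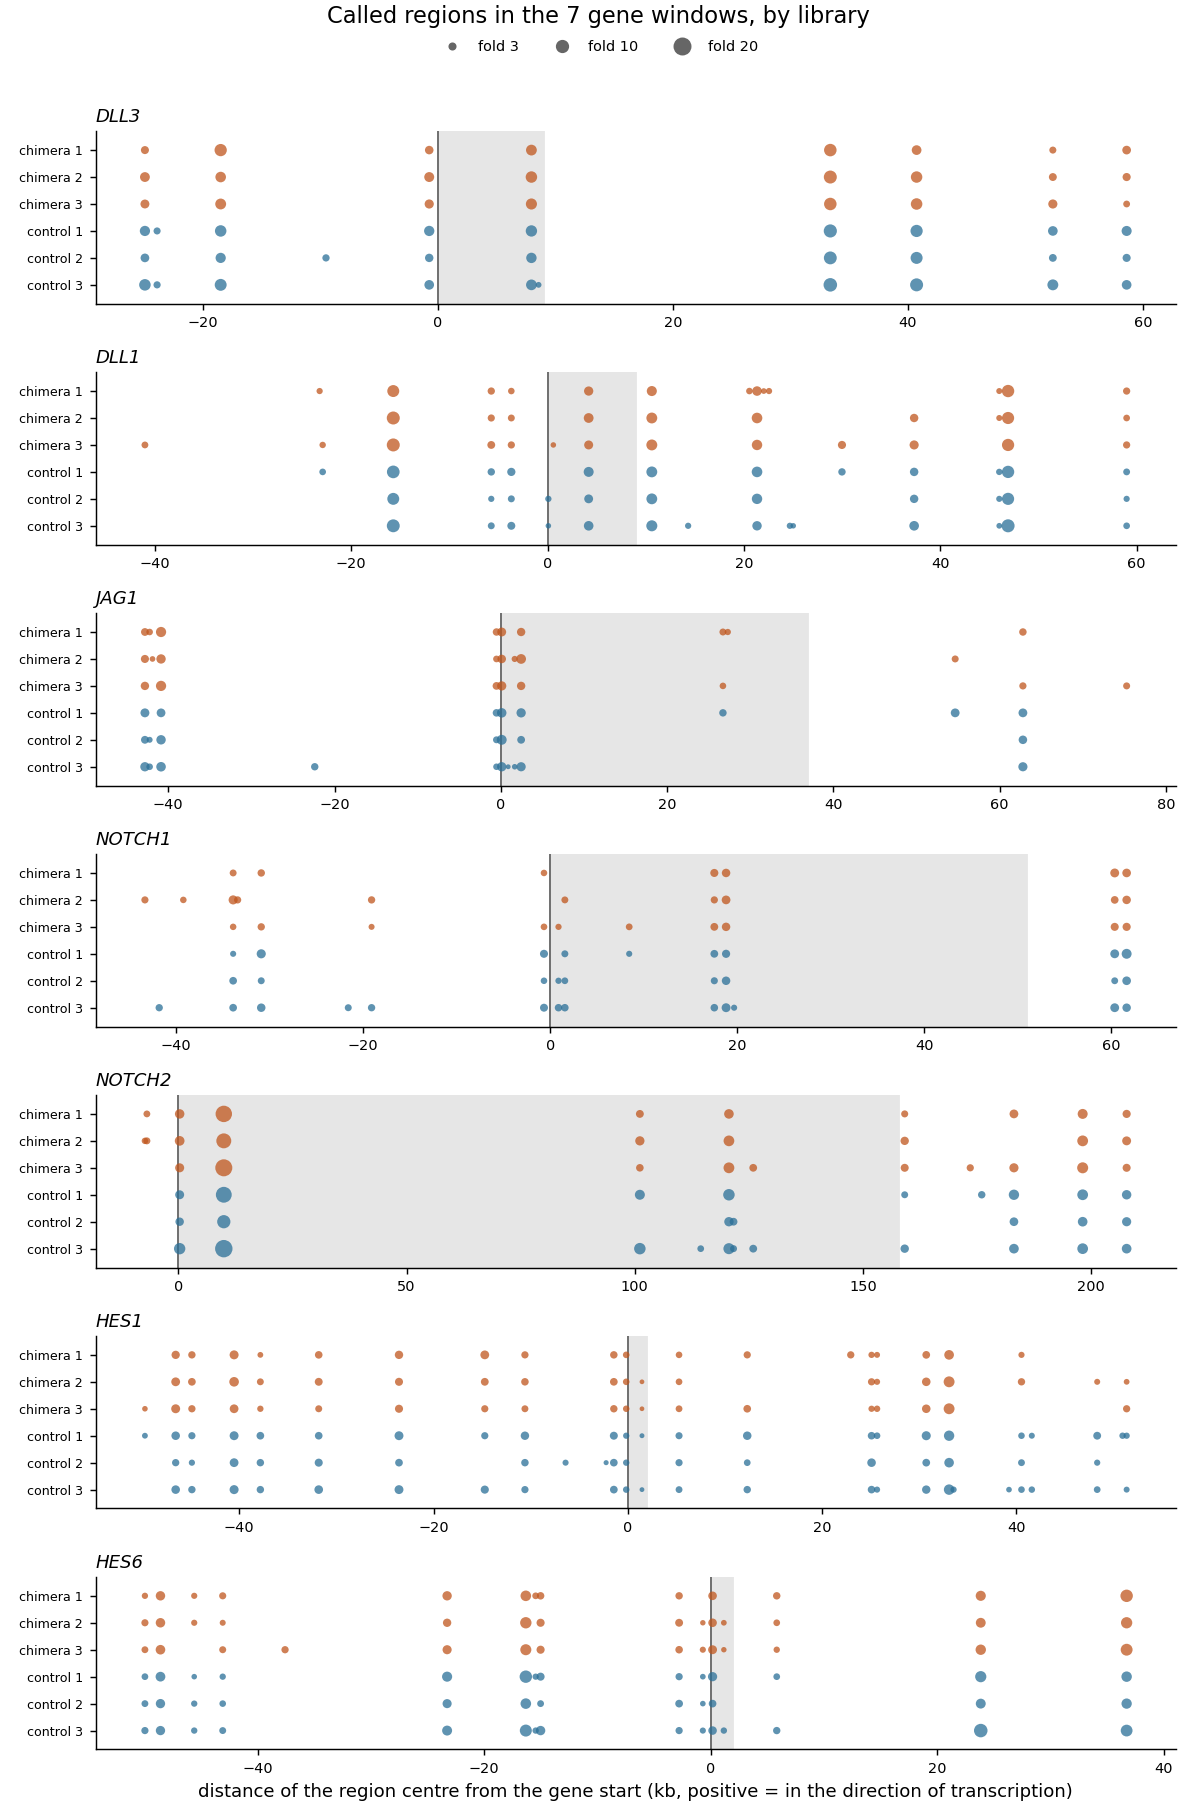
Peaks in the 7 gene windows by library. The horizontal axis is the distance of a region's centre from the gene start in kb, each row is 1 library, the area of a dot is proportional to the deposited fold, and the grey band is the gene span. Of the 124 regions, 54 have a dot in all 6 rows, NOTCH2 carries the largest dots 9.9 kb inside the gene, and HES1 has the most regions (28).

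DLL3, the inhibitory ligand, had 1 open region at its start. This region (chr19:39988379-39990144) had folds of 5.62, 7.59 and 6.44 in the chimera libraries and 8.12, 5.45 and 7.16 in the control libraries. The groups overlapped, with the lowest value in control 2 and the highest in control 1. The means were 6.55 ± 0.993 in chimera and 6.91 ± 1.35 in control libraries (SD, n = 3 each). After centring, the log2 fold differed by 0.04 ± 0.16 (SE), with an adjusted p of 0.957 by limma. Summit pileups there were 50, 64 and 66 in chimera and 68, 38 and 80 in control libraries.

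A second DLL3 region lay within the gene near its end (chr19:39997537-39998380), with folds of 8.94, 10.1 and 9.45 in chimera and 9.87, 8.28 and 8.80 in control libraries. It was higher than the start region in every library. The highest folds of the window lay 33.4 kb downstream (chr19:40022835-40023956), at 12.0, 12.9 and 12.0 in chimera and 13.3, 12.7 and 14.1 in control libraries. Between 2.18% and 4.71% of the peaks of a list had a higher fold, and the region did not differ after centring beyond its error (log2 difference -0.01 ± 0.11, limma adjusted p = 0.989). A weak region 23.9 kb upstream (chr19:39965999-39966206) was called in no chimera library and in control 1 (fold 3.86) and control 3 (3.96). The number of peaks in the DLL3 window was 10, 10 and 9 in chimera and 13, 11 and 12 in control libraries, without overlap. Over 100 kb tiles of the genome, peak numbers without overlap were lower in chimera libraries in 2.12% and higher in 2.05%. These shares are over all 25744 tiles with a peak in any library, of which 5372 had at least 5 peaks in each. Small counts tie more easily, so the shares are not matched to this window, and list length was not adjusted for. The covered length in the window was 5.84 ± 0.349 kb in chimera and 6.80 ± 0.743 kb in control libraries (SD, n = 3 each) and did overlap.

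DLL1, a ligand that activates Notch on a neighbouring cell, had calls at its start in few libraries. A region at the start (chr6:170599811-170600020) was called in no chimera library and in control 2 (fold 3.05) and control 3 (fold 2.33). Between 94.7% and 99.4% of the peaks of those 2 lists had a higher fold. Their summit pileups were 37 and 44. A region called in chimera 3 alone lay 0.6 kb downstream (fold 2.34, pileup 39). DLL1 was thus called at its start in 1 chimera and 2 control libraries, each time at low fold, and absence of a call is not absence of signal.

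The rest of the DLL1 window was open in both groups. A region 4.2 kb inside the gene (chr6:170595394-170596227) had folds of 6.57, 7.33 and 6.20 in chimera and 7.62, 6.02 and 7.06 in control libraries. The region of highest mean fold, 15.7 kb upstream (chr6:170615123-170616294), had folds of 11.0, 13.0 and 13.0 in chimera and 12.3, 10.9 and 12.8 in control libraries. Both overlapped between groups, with log2 differences of 0.07 ± 0.16 and 0.14 ± 0.11 (SE; limma adjusted p = 0.913 and 0.677). Of the 22 regions in this window, 8 were shared by all 6 libraries and 9 belonged to 1 library. Covered length was 7.37 ± 0.519 kb in chimera and 7.49 ± 1.87 kb in control libraries (SD, n = 3 each).

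JAG1, a ligand of the Jagged family that also activates the receptors, had a cluster of 3 regions at its start that were called in all 6 libraries. The region over the start (chr20:10654521-10655259) had folds of 6.10, 5.63 and 6.55 in chimera and 6.94, 7.58 and 6.70 in control libraries. Every chimera value lay below every control value, with means of 6.09 ± 0.462 and 7.07 ± 0.458 (SD, n = 3 each). After centring the groups overlapped, the log2 difference was -0.11 ± 0.18 (SE), and the adjusted p was 0.874 by limma. Without centring the log2 difference was -0.22 ± 0.18 (SE; limma adjusted p = 0.807). The lower fold thus passed the test neither with nor without centring.

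The region 2.4 kb into JAG1 (chr20:10652058-10653047) had folds of 5.35, 7.28 and 5.39 in chimera and 6.62, 4.64 and 6.45 in control libraries. The region 40.9 kb upstream (chr20:10695649-10696087), which had the highest mean fold of the window, had folds of 7.99, 6.71 and 8.04 in chimera and 5.89, 6.81 and 7.01 in control libraries. Its log2 difference was 0.31 ± 0.18 (SE) and did not pass the test (limma adjusted p = 0.532). Between the start cluster and the gene end, 2 further regions were called in the gene body, neither in all 6 libraries. Covered length was 3.28 ± 0.242 kb in chimera and 2.81 ± 0.596 kb in control libraries (SD, n = 3 each), with overlap.

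**Figure D2:**
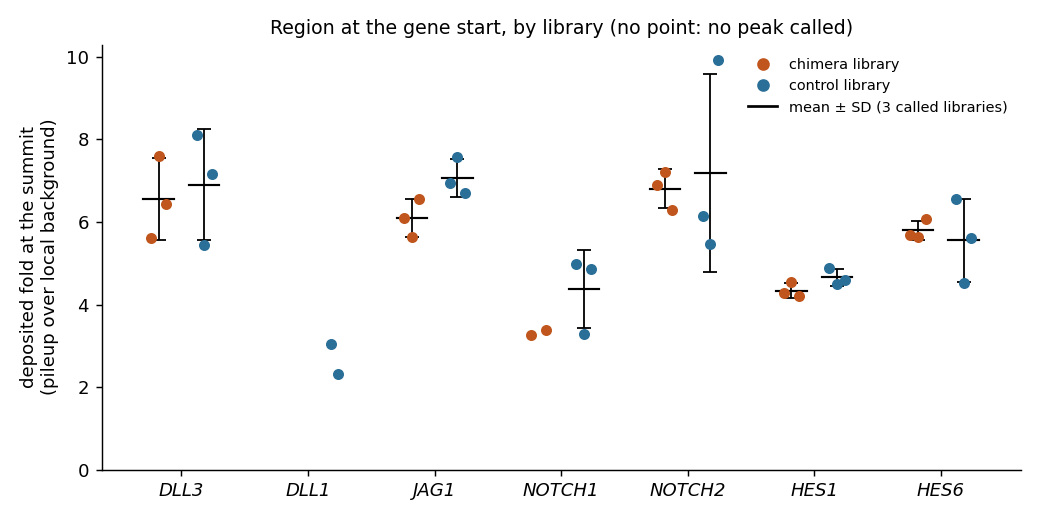
Deposited fold of the region at each gene start. Points are libraries, chimera left of control, and bars are the mean ± SD where all 3 libraries of a group had a peak. DLL1 has 2 control points alone, NOTCH1 lacks 1 chimera point, and HES1 is shown by the region 1.4 kb upstream, and JAG1 is the gene whose groups do not overlap (5.63 to 6.55 in chimera and 6.70 to 7.58 in control libraries).

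NOTCH1, the receptor best known for its part in cell fate choices, had no region at its start that was called in every library. The region 0.7 kb upstream (chr9:139440238-139441091) was called in chimera 1 (fold 3.26) and chimera 3 (3.39) but not in chimera 2, against folds of 4.98, 3.29 and 4.87 in control libraries. A region 1.6 kb downstream (chr9:139438262-139438603) was called in chimera 2 (fold 3.68) and in all 3 control libraries (3.73, 3.46 and 4.34). Another, 0.9 kb downstream (chr9:139438976-139439248), was called in chimera 3 (fold 2.98) and in control libraries 2 and 3 (3.04 and 4.30). Every library had a peak in at least 1 of these 3 regions. Summit pileups were 29 to 52 in the first 2, where counting alone gives an SD of 18.6% at the lowest.

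Deeper in NOTCH1, a pair of regions 18.8 kb and 17.5 kb from the start was called in all 6 libraries. The site at chr9:139420473-139421919 had folds of 5.53, 5.87 and 5.50 in chimera and 5.14, 5.55 and 6.06 in control libraries. The site at chr9:139422204-139422700 had folds of 5.02, 3.98 and 4.68 in chimera and 4.63, 3.85 and 4.39 in control libraries. Neither passed the test, with log2 differences of 0.12 ± 0.17 and 0.19 ± 0.17 (SE; limma adjusted p = 0.839 and 0.726). The highest mean fold of the window lay 61.6 kb downstream of the start and outside the gene (chr9:139377364-139379369), at 5.74, 5.52 and 5.12 in chimera and 7.57, 5.73 and 5.50 in control libraries. The window had 8, 11 and 10 peaks in chimera and 12, 12 and 16 in control libraries, without overlap. Chimera libraries were lower in this way in 2.12% of all tiles, which again were not matched for peak number. Covered length overlapped at 5.37 ± 0.437 kb in chimera and 5.52 ± 1.08 kb in control libraries (SD, n = 3 each).

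NOTCH2, the other receptor, held the region with the highest deposited fold of the 7 windows. It lay 9.9 kb inside the gene (chr1:120601745-120602399), with folds of 20.7, 17.1 and 22.2 in chimera and 19.2, 13.5 and 23.2 in control libraries. Between 0.0100% and 1.43% of the peaks of a list had a higher fold. Its summit pileups were 93, 63 and 105 in chimera and 76, 52 and 93 in control libraries, on a low local background, and were not the highest of the windows. The lowest and the highest fold were both control libraries, so the groups overlapped, at means of 20.0 ± 2.63 in chimera and 18.6 ± 4.91 in control libraries (SD, n = 3 each). The centred log2 difference was 0.24 ± 0.11 (SE), with an unadjusted p of 0.0489 and an adjusted p of 0.440 by limma.

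The NOTCH2 start itself (chr1:120611035-120612455) had folds of 6.89, 7.22 and 6.29 in chimera and 6.15, 5.48 and 9.92 in control libraries. Control 3 stood above the other libraries, and the log2 difference was 0.08 ± 0.18 (SE; limma adjusted p = 0.916). Pileups of 28, 26 and 29 in chimera and 23, 22 and 46 in control libraries make this the start region with the fewest fragments among those called in all 6 libraries. The 5′ part of NOTCH2 has near-identical copies elsewhere on chromosome 1, the NOTCH2NL genes, so reads at the start and at the high-fold site inside the gene can be shared. How such reads were placed is not given in the sources used here.

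A weak region 6.9 kb upstream of NOTCH2 (chr1:120618778-120619079) was the 1 region with at least 2 more chimera than control calls, at folds of 3.57 and 3.74 in chimera libraries 1 and 2. A region 121.6 kb inside the gene (chr1:120490222-120490492) showed the opposite, with folds of 4.65 and 3.74 in control libraries 2 and 3 and no chimera call. Both had summit pileups of 20 or less. Covered length was 4.50 ± 0.714 kb in chimera and 4.37 ± 0.810 kb in control libraries (SD, n = 3 each).

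HES1, the classical Notch target whose promoter carries both RBPJ cores printed above, had the densest window, with 28 regions in 102 kb. Its start was open in every library. The region over the start (chr3:193853647-193854029) had folds of 3.35, 3.32 and 3.23 in chimera and 3.00, 3.11 and 3.23 in control libraries. The region 1.4 kb upstream (chr3:193852022-193853105) had folds of 4.28, 4.53 and 4.21 in chimera and 4.89, 4.51 and 4.58 in control libraries. Neither passed the test, with log2 differences of 0.19 ± 0.16 and 0.00 ± 0.17 (SE; limma adjusted p = 0.695 and 0.995).

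These modest folds stood on high pileups. The summit 1.4 kb upstream of HES1 had pileups of 173, 192 and 206 in chimera and 221, 166 and 272 in control libraries, for which counting alone gives an SD of 6.06% to 7.76%. The local background of HES1 peaks, recovered from the deposited fold and p, was 2.62, 3.07 and 2.92 times the library's median in chimera and 3.24, 3.23 and 3.77 times in control libraries. NOTCH2 was at the other end, at 0.610, 0.604 and 0.620 times in chimera and 0.585, 0.682 and 0.584 times in control libraries. In chimera 1, chimera 2, chimera 3 and control 3 the NOTCH2 median sat at the lowest background of any peak in the library. Those values are the floor of the list and give no measure below it. A fold is divided by its local background, so the folds of HES1 and NOTCH2 do not rank their openness. The HES1 ratio was lower in every chimera than in every control library. It was so in 5.17% of 100 kb tiles with at least 5 peaks per library, while 7.89% were higher. Each median ran over the peaks that a library called, 20, 19 and 20 in chimera and 25, 20 and 24 in control libraries. The sites therefore differed between libraries. At the region 1.4 kb upstream the undivided background overlapped, at 39.7, 41.6 and 48.2 in chimera and 44.4, 36.1 and 58.6 in control libraries.

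**Figure D3:**
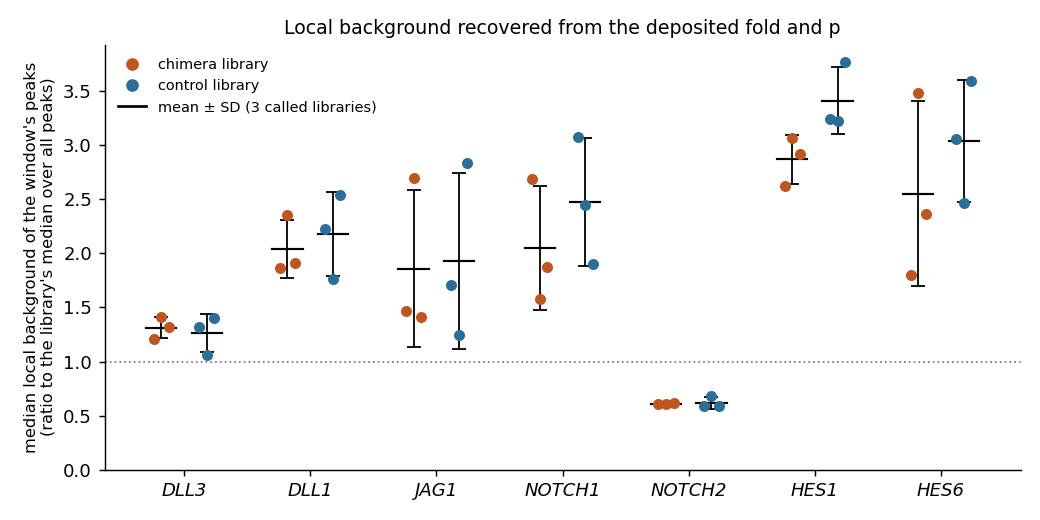
Local background of the peaks in each window, as the window's median divided by the library's median over all peaks. Points are libraries, chimera left of control, with mean ± SD bars, and the dotted line marks the library median. HES1 lies at 2.62 to 3.77 and NOTCH2 at 0.584 to 0.682 in all libraries.

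HES1 also held the flank region that differed most between the groups, which was chosen after its values were seen. It lay 25.1 kb downstream (chr3:193878798-193879399) and had folds of 3.04, 4.01 and 3.00 in chimera and 4.39, 5.64 and 4.46 in control libraries. Its summit pileups were 37, 43 and 45 in chimera and 60, 73 and 83 in control libraries, and its peaks covered 259, 234 and 260 bp in chimera and 547, 602 and 515 bp in control libraries. None of the 3 measures overlapped between groups, but all are uncentred readings of the same peaks. Raw fold was lower in chimera libraries without overlap in 10.1% of all shared regions. No such share is given here for pileup or covered length. The centred log2 fold differed by -0.42 ± 0.20 (SE) and did not pass the test (limma adjusted p = 0.434), and the centred fold of the groups overlapped.

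With the recovered pileup in place of fold, the log2 difference of the same HES1 region was -0.76 ± 0.18 (SE), lower in chimera libraries, and passed (limma adjusted p = 0.0114). It was the 1 region of the 54 that did so, where 1.17% of all regions were called lower and 1.29% higher. At an unadjusted p under 0.05, 5 of the 54 were higher and 7 lower in pileup, where 7.33% and 7.61% of all were. The call was lost without chimera 1 (-0.71, limma adjusted p = 0.0566) and without control 2 (-0.58, limma adjusted p = 0.157). A second HES1 region, 37.8 kb upstream (chr3:193815810-193816529), had folds of 2.58, 3.65 and 3.07 in chimera and 4.53, 4.24 and 4.21 in control libraries. It passed neither the fold test (log2 difference -0.39 ± 0.17, limma adjusted p = 0.403) nor the pileup test (-0.52 ± 0.17, limma adjusted p = 0.0901).

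The HES1 region of highest mean fold lay 33.1 kb downstream (chr3:193886819-193887346), at 7.16, 9.10 and 9.07 in chimera and 8.21, 7.05 and 8.41 in control libraries. The groups overlapped there. Weak regions 41.6 kb and 48.3 kb downstream (chr3:193895424-193895774 and chr3:193902121-193902539) were called in 0 and 1 chimera and in 2 and 3 control libraries. Covered length in the window was 9.70 ± 0.126 kb in chimera and 11.0 ± 1.79 kb in control libraries (SD, n = 3 each), and control 2 lay below all chimera libraries.

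HES6, the antagonist of HES1, was open at its start in all 6 libraries. That region (chr2:239148310-239149361) had folds of 5.69, 5.64 and 6.07 in chimera and 6.54, 4.53 and 5.60 in control libraries. The control libraries spanned the chimera values, at means of 5.80 ± 0.232 in chimera and 5.56 ± 1.01 in control libraries (SD, n = 3 each). The log2 difference was 0.18 ± 0.17 (SE; limma adjusted p = 0.730). Of the 16 regions in the HES6 window, 10 had a peak in all 6 libraries and 1 in a single library.

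Among the 54 shared regions the lowest unadjusted p of the centred fold belonged to HES6. The region 36.7 kb downstream (chr2:239111618-239112944) had folds of 11.9, 9.79 and 10.8 in chimera and 8.38, 8.15 and 10.6 in control libraries. The raw values overlapped and the centred ones did not, with a log2 difference of 0.37 ± 0.14 (SE), an unadjusted p of 0.0172 and an adjusted p of 0.323 by limma. With recovered pileup the difference was 0.21 ± 0.15 (SE; limma adjusted p = 0.578). Covered length was 7.36 ± 0.672 kb in chimera and 7.13 ± 0.725 kb in control libraries (SD, n = 3 each).

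Taking ligands, receptors and HES genes as one group, no region passed the test on centred fold. Of the 54 regions called in all 6 libraries, 0 were called higher and 0 lower by limma at an adjusted p of 0.05, where 0.00706% and 0.00353% of all 56679 were. At an unadjusted p under 0.05, 2 were higher and 2 lower, where 5.7% and 5.58% of all were. Differences ran from -0.42 to 0.37 on the log2 scale with a median of 0.07, against a median of 0.03 over all regions, and their standard errors from 0.11 to 0.24. A change of the size of these errors would not have been detectable at this number of libraries.

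By gene, the median log2 difference was -0.13 over 8 regions at DLL3, 0.09 over 8 at DLL1 and 0.14 over 5 at JAG1. It was 0.13 over 5 regions at NOTCH1 and 0.08 over 5 at NOTCH2. It was 0.00 over 13 regions at HES1 and 0.09 over 10 at HES6. DLL3 was the gene with more regions below than above 0 (5 against 3), and the others had more above. These signs depend on scaling, since without centring the median over all regions shifted from 0.03 to -0.08, and regions above 0 numbered 25 of the 54 in place of 36. In raw fold 0 regions lay higher (against 2.63% of all) and 6 lower (11.1%, against 10.1%) without overlap, and in centred fold 7 lay higher (13.0%, against 9.5%) and 2 lower (3.70%, against 6.99%).

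**Figure D4:**
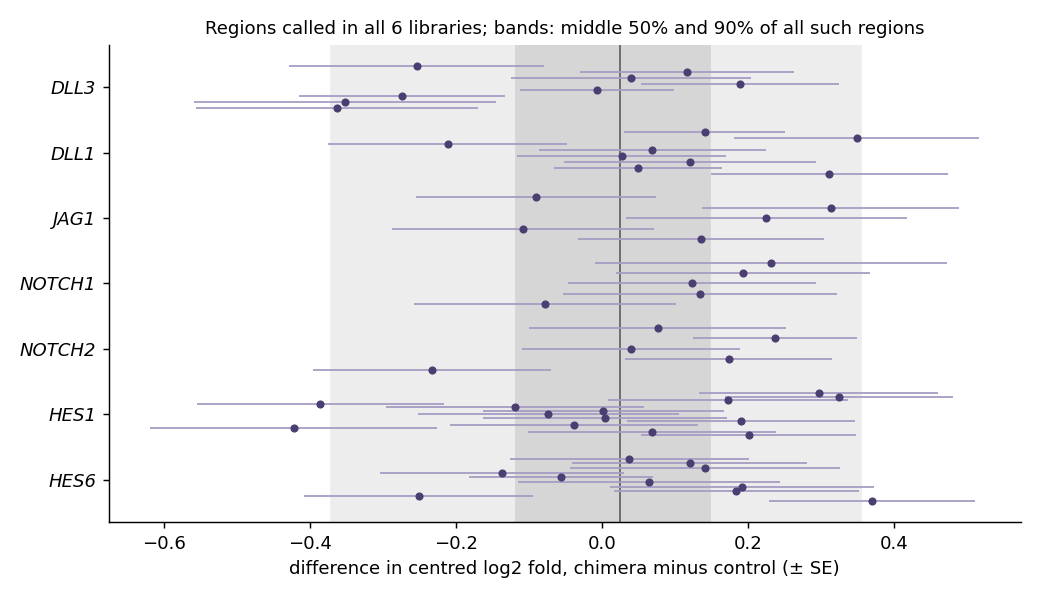
Difference in centred log2 fold, chimera minus control, of the 54 regions called in all 6 libraries, ± SE, ordered within each gene from upstream to downstream. The dark and light bands hold the middle 50% and 90% of all 56679 shared regions (-0.12 to 0.15 and -0.37 to 0.35), and most points of all 7 genes lie within the light band.

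**Figure D5:**
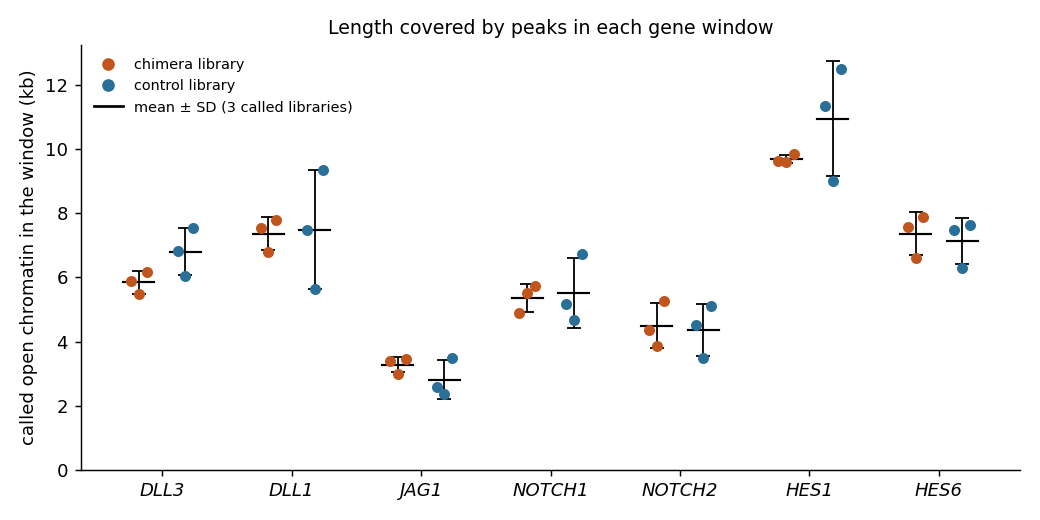
Length of called open chromatin in each window in kb, by library, with mean ± SD. In each of the 7 windows the chimera and control libraries overlap, and the control libraries spread more widely at DLL1 (5.63 to 9.36 kb).

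In covered length, the groups overlapped in 7 of 7 windows, where 4.02% of 100 kb tiles were higher and 5.21% lower in chimera libraries without overlap. By position, regions with an edge within 2 kb of a gene start were called in all 6 libraries in 8 of 18 cases, gene bodies in 6 of 15, upstream flanks in 22 of 46 and downstream flanks in 18 of 45. The median of the mean folds was 3.62 at gene starts and 4.43 in gene bodies, and 4.06 over all 124 regions, against 4.62 over all regions of the series. Starts of these genes were therefore not the sites of highest fold in their windows, and in 7 of 7 windows the region of highest mean fold lay elsewhere. Fold is divided by local background, so this does not rank openness. By summit pileup the start region exceeded the region of highest mean fold at JAG1, HES1 and HES6 in every library. At DLL3, DLL1, NOTCH1 and NOTCH2 it was lower wherever both were called.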

How the data were processed

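ATAC-seq libraries of H1155 cells numbered 3 chimera and 3 control. The names of the deposited lists carry MACS2, 1 list per library. The sources used here give no version, setting, aligner, read filter or transposase shift. HOMER 4.9 and GRCh38 are named without a role, per the submitters' processing notes. The deposited fold is the authors' ratio of summit pileup to local background, and the deposited −log10 p and −log10 q values are those of MACS2 within a library. These lists give no total reads.

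Peaks on chromosomes 1 to 22 and X were merged where they shared 1 bp, and the 0.0168% of peaks on other sequences were left out. A region's value in a library was its strongest peak. Summit pileup and local background were recovered from fold and p (tolerance 0.005 in −log10 p) for 100% of peaks. Regions called in all 6 libraries were fitted with limma 3.58.1 in R 4.3.3 (log2 fold, centred on each library's median, mean-variance trend) and p-values adjusted by Benjamini-Hochberg over all 56679. The fit was tested on simulated data.

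Windows and gene starts came from rounded hg19 spans, with strands from RefSeq and, for DLL1 and DLL3, from general knowledge. Named regions were, per window, the start region (within 2 kb), that of highest mean fold, those gained, lost or called, and those differing by 2 or more libraries. Other regions named were chosen after their values were seen. Members and lists were chosen with earlier results of these data known. Other Notch pathway genes were not located, for want of an annotation of the build. Alternatives changed the threshold, list length, merging, cover, flank, scaling, measure, pairing and libraries used. Replicate numbers did not pair the libraries. p-values measure the spread between these libraries. Each region's variance was drawn by limma towards the trend over all fitted regions, so its SE need not match the spread of its printed values.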

Additional observations from a re-analysis of the deposited data

How the results depend on the processing

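No paired structure was found (correlations of same-numbered deviations of -0.00547, -0.0592 and -0.0145). A replicate block in limma left 0 member regions higher and 0 lower, and over all regions gave 32 higher and 40 lower in place of 4 and 2. For presence, the block asked for 2 same-numbered pairs and gave 1 gained (0.806%, against 4.24% of all regions) and 6 lost regions (4.84%, against 5.56%). These counts equal those given above for at least 2 more libraries of 1 group, among the members and over all regions. They are therefore the same result and not a separate check of pairing. Over all regions, recovered pileup gave 729 higher and 665 lower, and no centring gave 0 and 0. The count of gained regions was 0 and became 1 at −log10 q of at least 10 (DLL1). The count of lost regions was 0 and became 1 with lists of equal length (HES1, 48.3 kb downstream) and 1 with 50% cover (HES1, 25.1 kb downstream). Without 1 library, gained regions numbered 0 to 1 (NOTCH2 6.9 kb upstream, without chimera 3) and lost regions 0 to 2 (2 each without chimera 2, control 1 and control 2). Regions called higher numbered 0 in every setting run. Regions called lower numbered 0 in all but recovered pileup, which gave 1, and that pileup count was 0 to 1 without 1 library (a check added after the data were seen). Covered length per window moved by less than the replicate SD in every setting run. Without 1 library its difference ran, in bp, from -1334 to -591 at DLL3, -1059 to 807 at DLL1, 240 to 802 at JAG1, -584 to 454 at NOTCH1, -311 to 489 at NOTCH2, -2232 to -477 at HES1 and -186 to 608 at HES6.

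Signs were followed across settings for the named regions called in all 6 libraries and for HES1 37.8 kb upstream and 25.1 kb downstream. Over all 54 shared members, regions above 0 fell from 36 to 25 without centring, so others changed sign too. Among the followed regions, log2 fold differences that changed sign were small and missed the threshold either way. Without centring these were the starts of DLL3 (-0.0678) and NOTCH2 (-0.0313) and the HES1 region 1.4 kb upstream (-0.10). With quantile normalization it was that HES1 region (-0.0214). With recovered pileup they were the NOTCH2 start (-0.0219) and the HES1 regions 1.4 kb upstream (-0.16) and 33.1 kb downstream (-0.16). The cause was not tested. Without 1 library, signs changed at the starts of DLL3 (-0.0298 to 0.12), JAG1 (-0.22 to 0.0556) and NOTCH2 (-0.0517 to 0.26), and at the HES1 region 1.4 kb upstream (-0.0851 to 0.0934), the DLL3 region 33.4 kb (-0.0527 to 0.0717) and NOTCH1 region 61.6 kb downstream (-0.24 to 0.0244).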
